A study of Mus musculus with 21 samples.

Results

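The messenger RNA levels of 53 genes of DNA replication and of the centromere were measured in mouse glioma stem-like cell lines. The members are the protein-coding genes whose symbols name an MCM protein, a subunit of the origin recognition complex, of GINS or of replication factor C, a numbered subunit of DNA polymerase alpha, delta or epsilon, or a lettered centromere protein. They are 53 of the 54532 genes in the deposited table, 33 of them replication genes and 20 centromere genes. The rule uses symbols alone and no measured value, although it was set with earlier results of these data known.

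The lines came from gliomas of engineered mouse models and were kept as low-adherence cultures in stem cell medium with EGF and bFGF, under 5% oxygen. The IDH1 mutant lines were PIC144-1, PIC144-3, PIC496-3 and PIC496-4, and the IDH1 WT lines were PC134-0, PC308-1 and PC326-1. Each line had 3 libraries that the labels call biological replicates, 21 libraries in all. The labels give no treatment, age, driver alleles other than IDH1, or mouse of origin, so PIC144-1 and PIC144-3, like PIC496-3 and PIC496-4, may share an animal. The series was made to compare Cgas between IDH1 WT and IDH1 mutant gliomas. The sequencing was of polyA RNA, and the values are FPKM, fragments per length of gene and per size of library, which allow levels of different genes to be compared per length. All libraries of a line have its genotype, so each line counted as 1 replicate (4 IDH1 mutant and 3 IDH1 WT lines).

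A cell licenses its replication origins in G1 phase, when the origin recognition complex (ORC) and its helpers load the ring of MCM2 to MCM7 onto DNA. In S phase CDC45 and GINS join the ring to form the active helicase, DNA polymerases alpha, delta and epsilon copy the strands, and replication factor C (RFC) loads the PCNA clamp that holds the polymerases on DNA. The centromere is marked by nucleosomes that hold CENP-A, on which the constitutive centromere-associated network (CCAN) sits through the cycle and on which the kinetochore is built in mitosis. Many replication genes are known targets of E2F factors in late G1, and many mitotic genes carry a cell cycle homology region (CHR) in their promoters. The cultures hold cells in all phases, so in these bulk samples fewer cells of a phase and less RNA per cell cannot be told apart.

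Promoter windows from RefSeq (GRCm38.p6), 250 bases before to 50 bases after each start, were matched by symbol to 48 of the 53 members, in 57 windows of 300 bases. Mcm4, Rfc2, Gins1, Gins2 and Gins4 had no window. An E2F form, TTTCCCGC or TTTGGCGC, searched on both strands, stood in a window of 13 of 28 replication members (46.4%) and of 4 of 20 centromere members (20%), against 1.80% of 27025 genes and 2.31% of 17492 protein-coding genes with windows. The CHR form TTTGAA stood in a window of 3 replication members (10.7%) and of 5 centromere members (25%), against 20.2% of all genes. The CCAAT box, which is CCAAT or its complement ATTGG, stood in a window of 18 replication members (64.3%) and 13 centromere members (65%), against 41.1% of all genes. A match describes the letters only. The windows of 5 members are printed 5′ to 3′ on the gene's strand, with all matches in capitals. Mcm3 and Mcm6 are among the helicase genes that were higher in PIC144-1 than in PIC144-3. Cenpa and Cenpm are among the centromere genes that were lower in the same contrast, and Mcm8 had the smallest p between genotypes. These 5 do not stand for all members that differed. The windows lie at chr1:20820263-20820562 for Mcm3, chr1:128359656-128359955 for Mcm6 and chr15:82244287-82244586 for Cenpm, all on the minus strand, and at chr5:30666636-30666935 for Cenpa and chr2:132815891-132816190 for Mcm8, on the plus strand.
Mcm3: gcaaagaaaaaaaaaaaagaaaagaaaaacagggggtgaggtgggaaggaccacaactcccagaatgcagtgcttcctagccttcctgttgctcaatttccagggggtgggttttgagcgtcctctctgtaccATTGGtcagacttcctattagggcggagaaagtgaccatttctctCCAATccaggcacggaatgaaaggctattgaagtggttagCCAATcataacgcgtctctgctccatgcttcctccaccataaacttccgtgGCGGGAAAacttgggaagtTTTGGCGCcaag
Mcm6: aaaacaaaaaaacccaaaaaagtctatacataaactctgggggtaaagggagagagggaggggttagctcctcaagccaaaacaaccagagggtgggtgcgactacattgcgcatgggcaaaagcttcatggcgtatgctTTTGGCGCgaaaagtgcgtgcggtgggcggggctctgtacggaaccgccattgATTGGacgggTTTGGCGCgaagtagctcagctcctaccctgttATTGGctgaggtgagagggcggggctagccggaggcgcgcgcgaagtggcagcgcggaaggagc
Mcm8: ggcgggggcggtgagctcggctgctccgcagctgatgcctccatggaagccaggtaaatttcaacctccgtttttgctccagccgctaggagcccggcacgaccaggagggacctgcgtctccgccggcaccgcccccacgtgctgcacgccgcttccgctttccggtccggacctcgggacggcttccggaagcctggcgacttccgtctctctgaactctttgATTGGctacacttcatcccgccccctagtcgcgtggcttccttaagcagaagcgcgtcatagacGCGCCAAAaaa
Cenpa: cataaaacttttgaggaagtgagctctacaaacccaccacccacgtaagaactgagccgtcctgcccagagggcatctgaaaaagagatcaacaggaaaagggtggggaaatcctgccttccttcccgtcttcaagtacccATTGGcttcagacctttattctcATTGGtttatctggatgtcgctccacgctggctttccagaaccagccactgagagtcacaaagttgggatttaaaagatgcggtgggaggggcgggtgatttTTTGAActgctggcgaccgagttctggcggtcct
Cenpm: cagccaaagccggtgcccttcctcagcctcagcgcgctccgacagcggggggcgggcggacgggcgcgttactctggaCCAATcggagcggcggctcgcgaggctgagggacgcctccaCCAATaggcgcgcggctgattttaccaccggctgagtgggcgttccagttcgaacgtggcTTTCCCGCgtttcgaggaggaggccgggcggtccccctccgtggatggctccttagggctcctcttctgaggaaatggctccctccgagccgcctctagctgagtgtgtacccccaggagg
The windows of Mcm3 and Mcm6 each held 2 E2F matches, one of each form in Mcm3 and 2 of TTTGGCGC in Mcm6. That of Mcm8 held 1 near its end, on the reverse strand. Cenpa's held a CHR match 17 bases after the start and no E2F form, while Cenpm's held TTTCCCGC beginning 71 bases before the start. Of the other helicase genes with a window, Mcm5 and Mcm7 held an E2F form and Mcm2 held none.

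Libraries held 15011668 to 21966351 fragments assigned to genes. All pairs of libraries within a line differed by more than sampling noise, and replicate 2 of PIC496-4 stood furthest from the others of its line. The markers fixed for neural stem and glioma cells were expressed in every line, with summed levels of 715 to 1555 FPKM in IDH1 mutant lines and 1038 to 1360 FPKM in IDH1 WT lines. None of 8 microglia and macrophage, 5 endothelial and 4 red cell markers passed the expression filter. Of these, 7, 4 and 2 were under 0.5 FPKM in all lines, with Cx3cr1 and Cldn5 at or near 0. Summed microglial markers came to 0.0993 to 0.257 FPKM in IDH1 mutant lines and 0.282 to 1.38 FPKM in IDH1 WT lines. Summed endothelial markers came to 0.0802 to 0.369 FPKM in IDH1 mutant lines and 0.335 to 0.844 FPKM in IDH1 WT lines. Red cell markers summed to at most 1.16 FPKM in IDH1 mutant lines and 0.0809 FPKM in IDH1 WT lines. Of 5 fibroblast and pericyte markers 1 passed the filter, with its highest level in PIC496-4, and 3 were under 0.5 FPKM in all lines. Their sums were 0.516 to 11.2 FPKM in IDH1 mutant lines and 0.369 to 0.692 FPKM in IDH1 WT lines. Dcn, which did not pass, reached 10.4 FPKM in PIC144-1 and at most 0.0441 FPKM elsewhere. Of 5 neuron markers 2 passed and 3 were under 0.5 FPKM in all lines. Their sums were 2.88 to 15.3 FPKM in IDH1 mutant lines and 11.4 to 29.7 FPKM in IDH1 WT lines. Tubb3 was 2.71 to 12.4 FPKM in IDH1 mutant lines and 10.5 to 28.1 FPKM in IDH1 WT lines.

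All 53 members were expressed. Each had a line mean of at least 0.5 FPKM in all 7 lines, so none entered the tests through one genotype alone, whereas 11228 of the 13379 genes tested met that mark. Means over the 7 lines ran between 2.15 FPKM for Mcm9 and 51.6 FPKM for Pold2 among replication genes, and between 1.13 FPKM for Cenpu and 40.7 FPKM for Cenpb among centromere genes. The MCM2-7 ring genes lay close together and high, at 24.2 (Mcm2), 27.1 (Mcm5), 34.6 (Mcm6), 35.4 (Mcm4), 40.5 (Mcm7) and 46.2 FPKM (Mcm3). Mcm8, Mcm9 and Mcm10, which are not part of that ring, were at 6.84, 2.15 and 4.90 FPKM. Among ORC genes Orc1 was lowest at 2.72 FPKM and Orc2 highest at 15.8 FPKM, and among GINS genes Gins3 was lowest at 2.64 FPKM and Gins4 highest at 21.9 FPKM. Within RFC, Rfc1, the large subunit, had the highest level at 21.4 FPKM and Rfc2 the lowest at 8.41 FPKM. Of the polymerase subunits Pole2 was lowest at 4.05 FPKM. Within the centromeric nucleosome and CCAN the highest was Cenpx at 18.5 FPKM and then Cenpa at 13.7 FPKM, and Cenpu, Cenpo and Cenpk lay under 2 FPKM. The fewest fragments of a member in a line were 153 over 3 libraries, for Cenps in PC308-1, which gave 1.29 to 1.78 FPKM as an exact Poisson 95% interval that covers counting error only.

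The median member varied less between lines than the median gene tested. The sets are unlike in level, since all 53 members but 11228 of 13379 genes had at least 0.5 FPKM in all lines. The part of level in this was not tested. The highest line exceeded the lowest by a median of 0.74 on the log2(FPKM + 0.5) scale for members (0.75 for replication and 0.70 for centromere genes), against 0.88 for all genes tested. The ratio of highest to lowest line mean ran between 1.26 for Mcm9 and 3.91 for Pole2. PIC496-4 was the highest line for 28 of the 53 members, 21 of them replication genes. PC308-1 was the lowest line for 20 members, 11 replication and 9 centromere genes. The matching shares of all genes tested are not given here, so these counts cannot be called particular to the members.

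**Figure D1:**
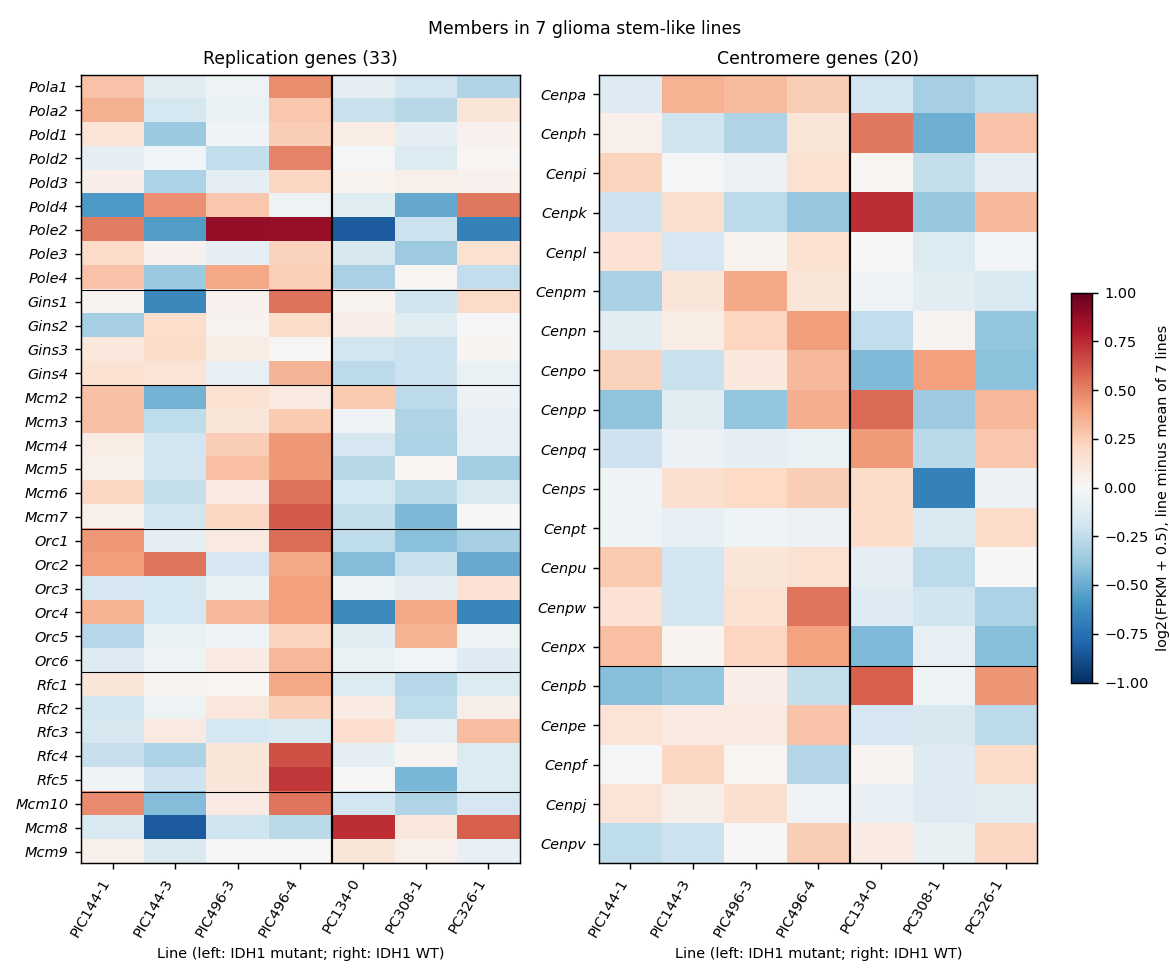
Deviation of each member in each line from its mean over the 7 lines, on the log2(FPKM + 0.5) scale (rows are genes, thin lines separate complexes; columns are lines, IDH1 mutant left of the black line and IDH1 WT right of it). The PIC496-4 column is red for most replication genes and the PC308-1 column is blue for most members, while Pole2 and Mcm8 have the widest ranges over lines.

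Between genotypes no member passed the test. Of 13379 genes, 16 passed at an adjusted p under 0.05 (limma on line means, Benjamini-Hochberg over all genes), which is 0.12%, 3 higher (0.0224%) and 13 lower (0.0972%) in IDH1 mutant lines, and 0 of the 53 members were among them. At an unadjusted p under 0.05 there were 9 members, 7 higher and 2 lower in IDH1 mutant lines, against 12.8% of all genes (6.09% higher and 6.7% lower). Limma voom on recovered fragments also called 0 members. A limma fit over the 21 libraries with the line as a random effect called 2 members, Mcm8 (adjusted p = 0.0307) and Orc2 (adjusted p = 0.0408). Over all 13379 genes the same fit called 187 higher and 365 lower in IDH1 mutant lines. The difference, IDH1 mutant minus IDH1 WT, was positive for 37 of 53 members, 25 of 33 replication genes (23 with FPKM rescaled to TPM) and 12 of 20 centromere genes, against 50.8% of all genes. Its median on the log2 scale was 0.22 for replication genes, 0.18 for centromere genes and 0.01 for all genes. The lines of the genotypes did not overlap for 8 members, 7 higher (Orc1, Orc2, Rfc1, Cenpa, Cenpe, Cenpj and Cenpx) and 1 lower (Mcm8) in IDH1 mutant lines, where 13.3% of all genes did not overlap (6.82% higher and 6.43% lower). Without both PIC496 lines the replication median was 0.13 (18 of 33 positive), and it was 0.17 to 0.29 without any 1 line. The centromere median was 0.09 without PC308-1, 0.11 without both PIC496 lines and 0.10 without replicate 2 of each line.

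The 12 members with the smallest p, 6 of each class, show how the lines lay. Line means are given for PIC144-1, PIC144-3, PIC496-3 and PIC496-4 and then for PC134-0, PC308-1 and PC326-1, in that order throughout. Mcm8, a helicase that works with MCM9 in recombination repair, had 5.72, 3.39, 5.54 and 5.24 FPKM in IDH1 mutant lines, against 11.02, 6.9998 and 9.97 FPKM in IDH1 WT lines. Every IDH1 mutant line lay below every IDH1 WT line, and PIC144-3 was lowest. The genotype means were 4.97 ± 1.07 FPKM (SD, n = 4) in IDH1 mutant lines and 9.33 ± 2.09 FPKM (SD, n = 3) in IDH1 WT lines, a log2 difference of -0.85 (SE 0.23, limma adjusted p = 0.278). The exact two-sided permutation p was 0.0286, the smallest that 35 splits of the lines can give.

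Orc2, an ORC core subunit, had 20.4, 22.2, 13.4 and 19.8 FPKM in IDH1 mutant lines, against 11.1, 12.9 and 10.6 FPKM in IDH1 WT lines. PIC496-3 lay just above PC308-1 and the other IDH1 mutant lines well above it, for a log2 difference of 0.68 (SE 0.19, limma adjusted p = 0.280). Orc1, the largest ORC subunit, had 3.72, 2.44, 2.83 and 4.10 FPKM in IDH1 mutant lines, against 2.12, 1.84 and 1.98 FPKM in IDH1 WT lines. The gap was narrowest between PIC144-3 and PC134-0, and the log2 difference was 0.58 (SE 0.20, limma adjusted p = 0.344). Pole2, the second subunit of DNA polymerase epsilon, had the widest spread of all members, with 5.32, 2.26, 6.99 and 6.93 FPKM in IDH1 mutant lines, against 1.79, 3.00 and 2.05 FPKM in IDH1 WT lines. PIC144-3 fell within the IDH1 WT range, so the groups overlapped despite a log2 difference of 1.00 (SE 0.37, limma adjusted p = 0.361). Rfc1 had 23.1, 21.6, 21.6 and 27.9 FPKM in IDH1 mutant lines, against 19.2, 17.3 and 19.2 FPKM in IDH1 WT lines, with no overlap (log2 difference 0.33, SE 0.14, limma adjusted p = 0.381). Gins4 had 24.2, 23.7, 20.5 and 27.7 FPKM in IDH1 mutant lines, against 18.01, 18.7 and 20.7 FPKM in IDH1 WT lines, where PIC496-3 and PC326-1 overlapped (log2 difference 0.32).

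Among centromere genes Cenpx, a histone-fold subunit of the CCAN that also serves in the Fanconi anaemia pathway in human cells, had 22.4, 18.4, 21.02 and 24.03 FPKM in IDH1 mutant lines, against 13.1, 16.97 and 13.3 FPKM in IDH1 WT lines. The means were 21.5 ± 2.38 FPKM (SD, n = 4) in IDH1 mutant lines and 14.5 ± 2.16 FPKM (SD, n = 3) in IDH1 WT lines, for a log2 difference of 0.56 (SE 0.15, limma adjusted p = 0.279). Single libraries overlapped, since PIC144-3 had 16.6, 17.7 and 20.9 FPKM and PC308-1 had 17.5, 14.6 and 18.8 FPKM. Cenpa, the centromeric histone, had 12.3, 17.3, 16.9 and 16.1 FPKM in IDH1 mutant lines, against 11.7, 10.6 and 11.2 FPKM in IDH1 WT lines. PIC144-1 lay near PC134-0 and the other IDH1 mutant lines stood apart from it (log2 difference 0.46, SE 0.15, limma adjusted p = 0.329). Cenpe, a kinesin motor of the kinetochore, had 14.3, 13.7, 13.8 and 15.9 FPKM in IDH1 mutant lines, against 11.5, 11.5 and 10.7 FPKM in IDH1 WT lines (log2 difference 0.35, SE 0.12, limma adjusted p = 0.339). Its exact permutation p was 0.0286, as for Cenpx and Rfc1.

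Cenpb, which binds the CENP-B box of centromeric satellite DNA, ran the other way, with 29.2, 29.97, 41.2 and 33.3 FPKM in IDH1 mutant lines, against 59.9, 38.0 and 53.5 FPKM in IDH1 WT lines. PC308-1 lay below PIC496-3, so the groups overlapped (log2 difference -0.58, SE 0.20, limma adjusted p = 0.342). Cenpn, a CCAN subunit that binds the CENP-A nucleosome in human cells, had 7.02, 8.04, 8.91 and 10.3 FPKM in IDH1 mutant lines, against 6.35, 7.75 and 5.71 FPKM in IDH1 WT lines. Cenpw, the histone-fold partner of CENP-T, had 2.51, 1.89, 2.53 and 3.45 FPKM in IDH1 mutant lines, against 1.99, 1.87 and 1.69 FPKM in IDH1 WT lines, and in PIC496-4 its libraries were split, at 3.95, 2.31 and 4.10 FPKM, with replicate 2 the low one.

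**Figure D2:**
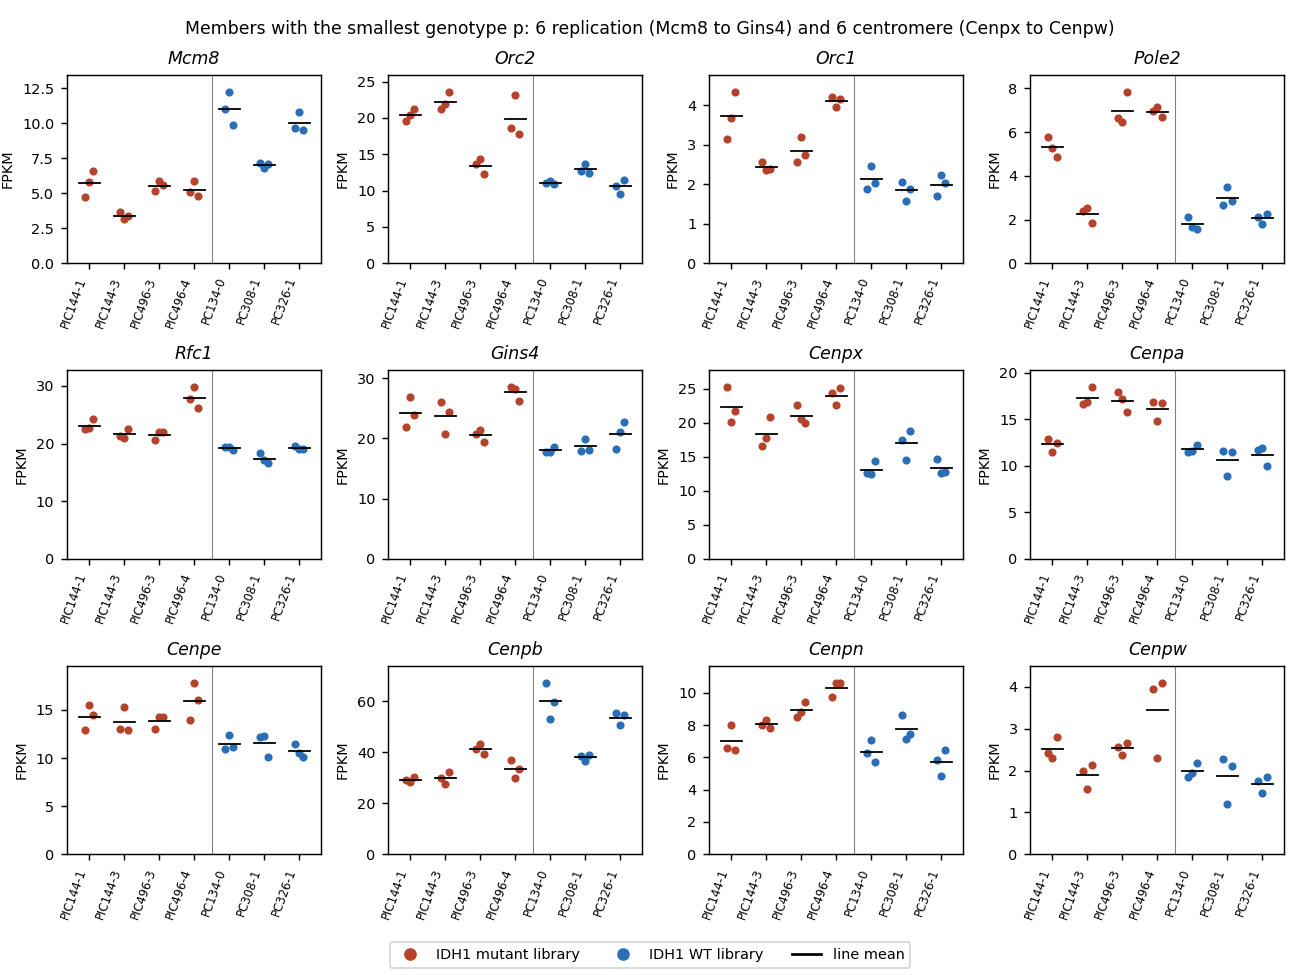
FPKM of the 12 members with the smallest genotype p in each of the 21 libraries (points; red IDH1 mutant, blue IDH1 WT) with line means (bars), linear axes starting at 0. Mcm8 line means are at most 5.72 FPKM in IDH1 mutant lines and at least 6.9998 FPKM in IDH1 WT lines, and Pole2 in PIC144-3 (2.26 FPKM) lies among the IDH1 WT lines.

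By complex, the MCM2-7 genes all had positive differences, with a median of 0.34 on the log2 scale, the widest for Mcm7 at 0.40 (SE 0.21) and the narrowest for Mcm2 at 0.03 (SE 0.22). Mcm2 turned negative when the FPKM were rescaled to TPM. None had an unadjusted p under 0.05. The summed level of the 6 genes was 230, 172, 232 and 274 FPKM in IDH1 mutant lines, against 189, 168 and 190 FPKM in IDH1 WT lines, so that PIC144-3 lay beside the IDH1 WT lines and the other IDH1 mutant lines above them. Of the ORC genes 4 of 6 were positive, with Orc4 at 5.47, 3.67, 5.38 and 5.75 FPKM in IDH1 mutant lines, against 2.52, 5.64 and 2.49 FPKM in IDH1 WT lines, and Orc3 and Orc5 had log2 differences of -0.0026 and -0.10. Of the polymerase subunits 7 of 9 were positive and those of delta, Pold1 to Pold4, lay between -0.08 and 0.08. GINS genes had differences of -0.01 to 0.32 and RFC genes of -0.23 (Rfc3) to 0.34 (Rfc5). Among the centromeric nucleosome and CCAN genes 10 of 15 were positive (median 0.18), and those that were negative were Cenph, Cenpk, Cenpp, Cenpq and Cenpt. Of the other Cenp genes, Cenpj, which despite its name acts in centriole assembly, had 3.02 to 3.54 FPKM in IDH1 mutant lines and 2.80 to 2.90 FPKM in IDH1 WT lines, and Cenpf, a large kinetochore protein of G2 and mitosis, had 9.59 to 13.7 FPKM in IDH1 mutant lines and 10.8 to 13.5 FPKM in IDH1 WT lines. The 95% intervals show how little 7 lines resolve: for Mcm7 the interval of the log2 difference was -0.08 to 0.89 and for Pold2 it was -0.36 to 0.52.

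Many members differed between lines of 1 genotype. In tests over libraries, where the error is the spread between libraries of a line and may be technical, 42 of 53 members differed among the 4 IDH1 mutant lines, against 80.7% of all genes tested. They were 30 of 33 replication genes and 12 of 20 centromere genes. Among the 3 IDH1 WT lines 28 members differed (17 replication and 11 centromere genes), against 61.4% of all genes, and without replicate 1 of each line 18 members did, when calls over all genes fell to 5989, against 8215 with all libraries. All MCM2-7, ORC and polymerase genes differed among IDH1 mutant lines, and no GINS gene did among IDH1 WT lines in limma (0 also at an unadjusted p under 0.05). Of the CCAN genes that differed among IDH1 WT lines, Cenpk had 2.68, 0.971 and 1.89 FPKM, Cenph had 10.7, 5.05 and 8.997 FPKM and Cenpo had 0.795, 1.84 and 0.819 FPKM in PC134-0, PC308-1 and PC326-1. PC308-1 was thus lowest for Cenpk and Cenph and highest for Cenpo.

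PIC144-1 against PIC144-3 and PIC496-4 against PIC496-3, IDH1 mutant lines with a common number in the name, gave 2 contrasts. Most of the replication genes that passed were higher in PIC144-1 and in PIC496-4. The labels set no order within a pair, so which line was put first is arbitrary and the common direction has no meaning. In PIC144-1 relative to PIC144-3, 31 members passed, of which 22 rose and 9 fell. Of all genes 58.2% passed, 28.2% that rose and 30% that fell. Of the replication genes 18 rose and 4 fell, and of the centromere genes 4 rose and 5 fell. All 6 MCM2-7 genes rose, and so did Mcm8, Mcm9 and Mcm10. Mcm2 had 25.8, 30.5 and 31.6 FPKM in the PIC144-1 libraries, against 16.1, 16.5 and 18.5 FPKM in the PIC144-3 libraries, with no overlap (log2 difference 0.76, SE 0.09, limma adjusted p = 6.01e-07). Mcm10, an initiation factor, had 6.10, 7.005 and 7.24 FPKM in PIC144-1 and 3.10, 3.13 and 3.88 FPKM in PIC144-3 (log2 difference 0.91). Pole2 had the largest rise, with 5.80, 5.29 and 4.88 FPKM in PIC144-1 and 2.38, 2.55 and 1.86 FPKM in PIC144-3 (log2 difference 1.08, SE 0.12, limma adjusted p = 3.77e-07). Pold4, the smallest subunit of DNA polymerase delta, fell most, with 15.8, 13.8 and 14.2 FPKM in PIC144-1 and 38.5, 25.6 and 26.8 FPKM in PIC144-3 (log2 difference -1.01). In this contrast the other tested genes within 5 Mb had median log2 differences of 0.39 around Mcm2, 0.31 around Mcm10 and 0.36 around Pole2. The medians were 0.09, 0.07, -0.13, 0.26 and -0.07 around Mcm3, Mcm4, Mcm5, Mcm6 and Mcm7, and -0.08 around Pold4. That of all genes was -0.002. The part of such shifts in the members' differences was not tested.

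Cenpa fell in PIC144-1 as well, with 12.9, 11.4 and 12.5 FPKM, against 16.6, 16.8 and 18.4 FPKM in PIC144-3 (log2 difference -0.48, SE 0.09, limma adjusted p = 0.000184). Cenpm, a CCAN subunit, had 10.1, 11.5 and 10.2 FPKM in PIC144-1 and 15.4, 13.4 and 15.04 FPKM in PIC144-3 (log2 difference -0.45). Cenpa and Cenpm thus went opposite to Mcm3 and Mcm6, which had log2 differences of 0.55 and 0.44. Rescaling to TPM, which moved the median of all genes by 0.09, gave 27 members higher and 4 lower. Among centromere genes it gave 7 higher and 2 lower, the 2 being Cenpa and Cenpm. The counts of all genes under TPM alone are not given here. Over all 12 alternatives, TPM among them, 2962 to 4662 of all genes were higher and 3273 to 4504 lower. The member counts dropped under some alternatives. When any replicate was left out in all lines, or when no filter was set, 3 of the 6 MCM2-7 genes rose. Without replicate 1 of each line 2 members fell, and without replicate 3 of each line 5 fell.

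In PIC496-4 relative to PIC496-3, 24 members passed, of which 21 rose and 3 fell. Of all genes 51.5% passed, 25.1% that rose and 26.4% that fell. The 21 were 19 replication genes and 2 centromere genes, and the 3 that fell were all centromere genes (Cenpm, Cenpb and Cenpf). Of the ORC genes 5 of 6 rose. Of the MCM2-7 genes 2 of 6 rose, Mcm6 and Mcm7, or 5 without replicate 2 of each line. Pold2, the regulatory subunit of DNA polymerase delta, had 78.3, 62.4 and 75.8 FPKM in PIC496-4, against 42.9, 44.5 and 41.3 FPKM in PIC496-3 (log2 difference 0.74, SE 0.09, limma adjusted p = 7.32e-07). Rfc5, a small RFC subunit, had 16.4, 15.4 and 15.6 FPKM in PIC496-4 and 10.2, 10.7 and 10.1 FPKM in PIC496-3 (log2 difference 0.59). Cenpp had the largest rise, with 3.14, 3.57 and 4.06 FPKM in PIC496-4 and 2.27, 1.62 and 1.91 FPKM in PIC496-3 (log2 difference 0.75), and Cenph was the other centromere gene that rose (log2 difference 0.42). Pole2, first in the PIC144 contrast, had a log2 difference of -0.01 here (6.93 FPKM in PIC496-4, against 6.99 FPKM in PIC496-3). With TPM the centromere genes split into 3 higher and 2 lower. Over all 12 alternatives, TPM among them, 2451 to 3462 of all genes were higher and 2771 to 3623 lower. Whether a gene differed between the contrasts was not tested.

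**Figure D3:**
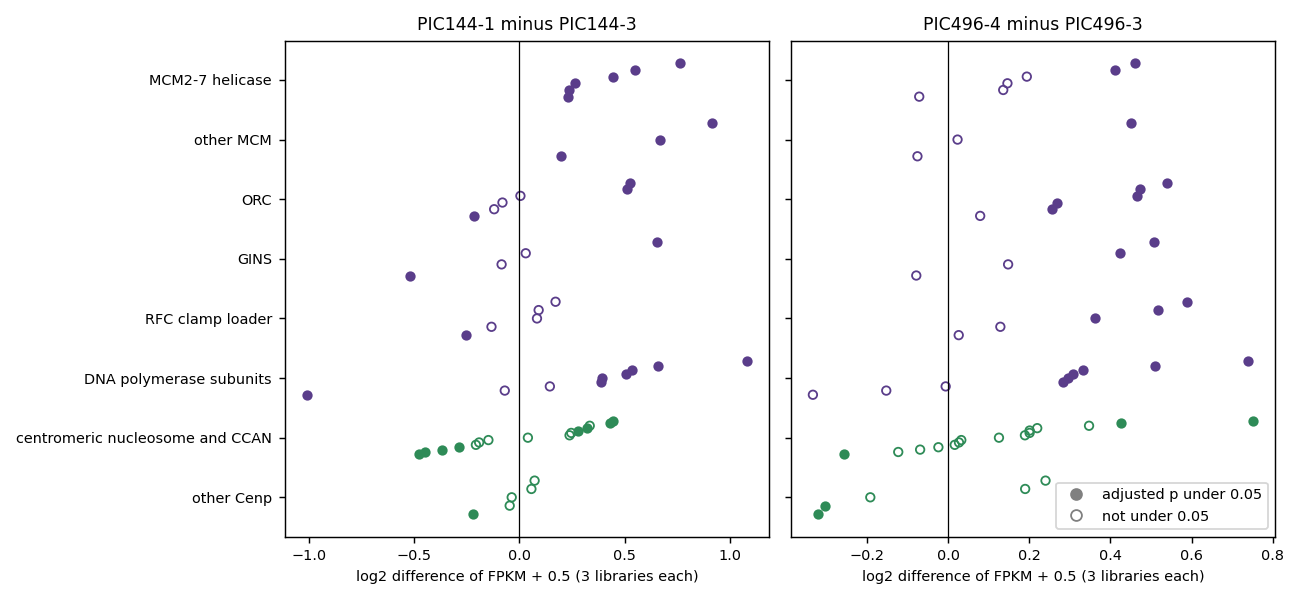
Log2 difference of each member between lines with a common number, PIC144-1 minus PIC144-3 (left) and PIC496-4 minus PIC496-3 (right), by complex; filled points passed an adjusted p under 0.05 and open points did not. All MCM2-7 points are filled and right of 0 in the left panel, 5 of 6 ORC points are filled in the right panel, and centromere points (green) lie on both sides of 0.

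Other genes of the same processes were read from lists set by their textbook roles. Of 30 tested replication partners, which include licensing and initiation factors as well as genes of the fork, 25 had positive genotype differences. Of these 30 genes 0 passed and 3 had an unadjusted p under 0.05 in limma (median difference 0.21, against 0.01 for all genes). Topbp1, an initiation factor, had 17.3, 17.6, 16.1 and 18.5 FPKM in IDH1 mutant lines, against 13.4, 11.7 and 13.3 FPKM in IDH1 WT lines (log2 difference 0.43, limma adjusted p = 0.280). Lig1, the ligase that joins Okazaki fragments, had 27.01, 21.03, 28.3 and 30.4 FPKM in IDH1 mutant lines, against 12.99, 23.7 and 13.8 FPKM in IDH1 WT lines, and overlapped. Of 36 kinetochore and centromere partners 25 were positive, 0 passed and 3 had an unadjusted p under 0.05 (median 0.16), with the smallest p for Nuf2 (log2 difference 0.39) and Zwilch (0.40), an outer kinetochore and a checkpoint gene. Of 18 G1/S genes 14 were positive (median 0.15), and the smallest p were those of the histone chaperones Nasp and Chaf1a, both with a log2 difference of 0.38. Of 22 G2/M genes, which share Bub1b with the kinetochore list, 13 were positive (median 0.03), with the smallest p for Cdc20 and Plk1 (both 0.39). Of 11 genes of quiescence and cell cycle exit 2 were positive and 9 negative (median -0.21), with the smallest p for Rb1, the retinoblastoma gene, at 9.45, 12.8, 11.8 and 7.69 FPKM in IDH1 mutant lines, against 15.2, 19.1 and 16.0 FPKM in IDH1 WT lines (log2 difference -0.68). None of the genes in the last 3 lists passed in limma, and 2 of G1/S, 1 of G2/M and 1 of the exit list had an unadjusted p under 0.05.

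Across lines, the median deviation of the 33 replication genes from their means was 0.08, -0.17, 0.08 and 0.34 in IDH1 mutant lines, against -0.12, -0.21 and -0.07 in IDH1 WT lines, on the log2 scale. That of the 20 centromere genes was -0.03, -0.04, 0.08 and 0.15 in IDH1 mutant lines, against 0.01, -0.15 and -0.05 in IDH1 WT lines. The G1/S genes had 0.02, -0.07, -0.01 and 0.30 in IDH1 mutant lines, against -0.06, -0.26 and -0.03 in IDH1 WT lines. All 3 sets were highest in PIC496-4 and lowest in PC308-1, and the G2/M genes were too, at 0.17 and -0.36. PIC144-1 and PIC144-3, which stood apart in the replication genes, lay in the other order in the G2/M genes, at -0.08 and 0.01. The G2/M medians of PC134-0 and PC326-1 were both 0.08, where the replication medians were negative. Cell cycle genes thus went with the replication genes in the highest and the lowest line. In PIC144-1, PIC144-3, PC134-0 and PC326-1 the G2/M median had the opposite sign to the replication median. The part of cell cycle genes in the results was not tested.

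**Figure D4:**
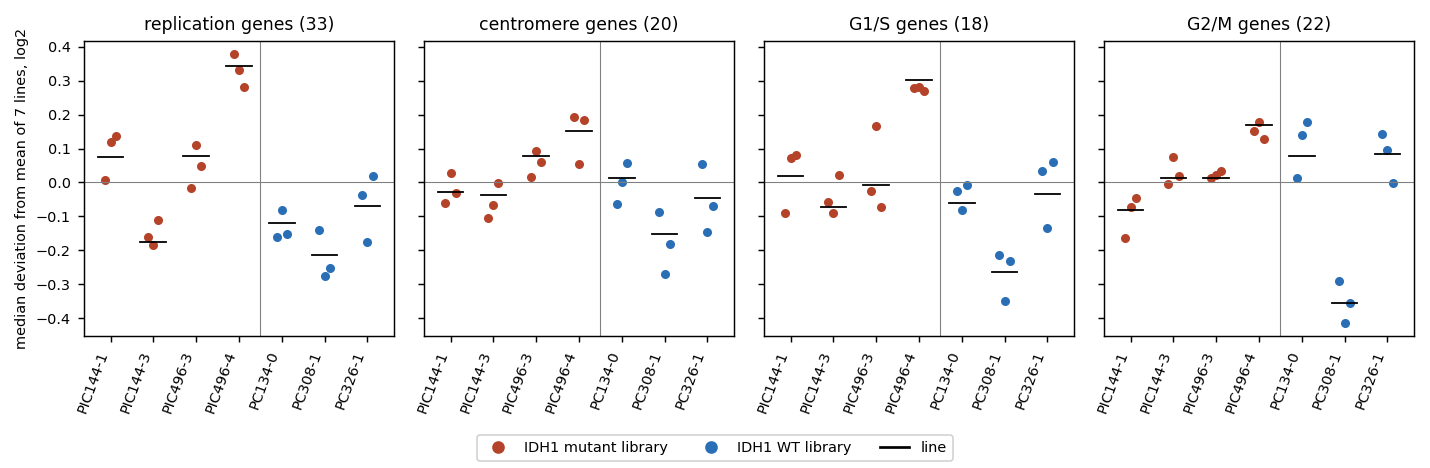
Median deviation from the mean of 7 lines (log2 scale) of the replication genes, the centromere genes and the G1/S and G2/M lists, by library (points; red IDH1 mutant, blue IDH1 WT) and line (bars). In all 4 panels PIC496-4 is the highest line and PC308-1 the lowest, and the replication medians of PIC144-1 and PIC144-3 (0.08 and -0.17) do not share a level.

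Several members moved with the genes around them on the chromosome. Mcm8 lies on chromosome 2 from 132816141 to 132844197 (GRCm38, plus strand) and Cenpb on the same chromosome from 131175182 to 131180067 (minus strand), so their windows overlap. The other tested genes within 5 Mb had a median genotype difference of -0.45 on the log2 scale around Mcm8 (69 genes) and -0.38 around Cenpb (87 genes), beside -0.85 and -0.58 for the members. Around Mcm8 the neighbours' median deviation was -0.17, -0.33, -0.09 and -0.08 in IDH1 mutant lines, against 0.42, -0.08 and 0.37 in IDH1 WT lines, and Mcm8 itself was also lowest in PC308-1 among the IDH1 WT lines. Pole2 (chromosome 12 from 69201773 to 69228195, minus strand) had 58 neighbours with a median of 0.32, and its neighbours were high in PC308-1 (0.50) where Pole2 was not (-0.21). Cenpo, also on chromosome 12, followed its neighbours in the IDH1 WT lines, which stood at -0.47, 0.48 and -0.64.

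Cenph, Cenpk and Cenpp lie on chromosome 13, where all 560 tested genes had median deviations of 0.32, -0.24 and 0.27 in PC134-0, PC308-1 and PC326-1. The deviations of Cenph were 0.53, -0.49 and 0.29 and those of Cenpk 0.74, -0.38 and 0.32 in the same lines. Orc4, on chromosome 2 in another stretch, had a neighbour median of 0.39 beside its own 0.53. Orc2 (chromosome 1 from 58462771 to 58505109, minus strand) had a neighbour median of 0.26. Its neighbours stood at 0.06 in PIC144-1 and at 0.71 in PIC144-3, while Orc2 itself had 20.4 FPKM in PIC144-1 and 22.2 FPKM in PIC144-3. Neighbour medians were smaller around Cenpx (0.14), Cenpa (0.07) and Orc1 (-0.02), beside 0.56, 0.46 and 0.58 for those genes. The part of these shifts of neighbouring genes in the members' differences was not tested.

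**Figure D5:**
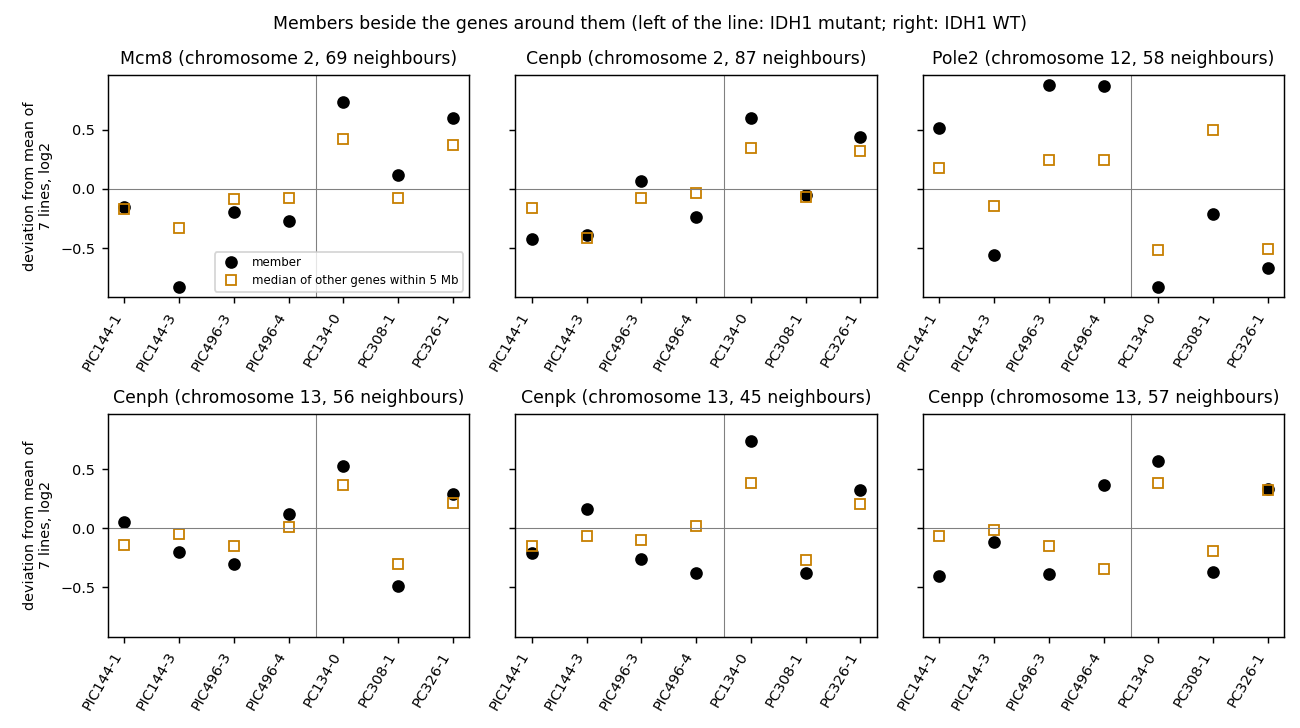
Deviation from the mean of 7 lines (log2 scale) of 6 members (filled circles) and the median of the other tested genes within 5 Mb (open squares), by line. Around Mcm8, Cenpb, Cenph and Cenpk the squares lie on the same side of 0 as the circles in PC134-0 and PC326-1, while Pole2 and its neighbours lie on opposite sides in PC308-1.

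Some members share exon sequence with a gene on the other strand, and no source used here says whether counting used the strand. The share of the member's exon bases was 67.3% for Gins2 with Gse1, 29.8% for Orc2 with Nif3l1, 26.7% for Cenpu with Primpol, 19.2% for Mcm9 with Asf1a, 19% for Cenpo with Adcy3 and 15.1% for Rfc2 with Lat2, and between 10% and 13% for Rfc4, Cenpp, Orc1 and Rfc5. Pold4 shares 24.6%, and Pole2 8.50%, with a protein-coding gene on the same strand. Other shares under 10% are not listed. The values of these genes are therefore less certain than those of Mcm8, Cenpx, Cenpa and Cenpe, which had no such overlap.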

How the data were processed

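The authors deposited FPKM of 54532 genes in 21 libraries of 7 lines. Strand-specific paired-end libraries were made from captured polyA RNA, per the labels' protocols. Per the submitters' processing notes the aligner was HISAT2 and the build mm39, while for the counter, the annotation and the use of strand this is not given in the sources used here. Gene coordinates in the deposited table are those of GRCm38 (53585 of 54532 genes, and 51 of 53 members, had the same coordinates in GENCODE M21). FPKM times length gave whole fragments within 0.05 for all values under 1000 fragments. Gene symbols turned into dates (27) were restored by ID.

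Line means of 3 libraries were put on the log2(FPKM + 0.5) scale and tested by limma 3.58.1 (trend and robust, R 4.3.3) on the 13379 genes with at least 0.5 FPKM in at least 3 of 7 lines, with Benjamini-Hochberg adjustment. Log2 differences on this scale understate changes of low genes. Differences between lines were tested by limma over libraries, whose p-values measure the spread between libraries and may be technical. The fits were tested on simulated data with planted changes larger than any genotype difference of a member. That test therefore does not show how well differences of the members' size are found. Members and gene lists were chosen with earlier results of these data known. Named were the 6 members of each class with the smallest genotype p, the highest and lowest member of each complex, the 3 of each class with the widest range over lines, the 3 with the largest difference in each contrast of lines sharing a number, and the 2 genes of each list with the smallest p. Genes named for the chromosome around them were chosen after their values were seen. Neighbours are the other tested genes within 5 Mb. Figures were drawn with matplotlib 3.10.9.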

Additional observations from a re-analysis of the deposited data

Results flagged for a closer look

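Within the 4 IDH1 mutant lines 1 line stood apart from the other 3 for 2 of the 53 members, by the gap to the nearest line as a share of the range (Dixon's test). Chance flags about 1 in 20 such groups, so 2 of 53 is no more than chance would flag. The share of all genes tested that this test flags is not given here. Orc3, an ORC subunit, was highest in PIC496-4 at 11.3 FPKM, against 7.34 to 7.98 FPKM in the other IDH1 mutant lines and 7.84 to 9.33 FPKM in IDH1 WT lines, and its libraries in PIC496-4 were at 10.98, 12.99 and 9.87 FPKM. Rfc3, a small RFC subunit, was highest in PIC144-3 at 9.50 FPKM, against 7.79 to 7.97 FPKM in the other IDH1 mutant lines and 8.36 to 11.1 FPKM in IDH1 WT lines.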

How the results depend on the processing

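The medians of replication genes (0.13 to 0.29 on the log2 scale) and of centromere genes (0.09 to 0.21) stayed positive under all 23 alternatives, and no centromere gene passed under any. Replication genes passed in 2 alternatives: 2 over 21 libraries with the line as a random effect and 1 (Mcm8, adjusted p = 0.0465) when the replicate block was added. Over all genes, 3 were higher and 13 lower in IDH1 mutant lines. These counts were 0 and 3 with no filter, 2 and 6 with a filter of 2 FPKM, 187 and 365 over 21 libraries, 140 and 300 with the replicate block, 0 and 4 with lines sharing a number averaged, 0 and 0 with voom, and 1 and 4 without both PIC496 lines (added after seeing the data). Leaving out each line gave 0 to 23 higher and 1 to 25 lower: 0 and 1 without PC134-0, 0 and 3 without PC326-1, 23 and 25 without PC308-1, 1 and 4 without PIC496-4, and 7 and 8 lower without PIC144-1 and without PIC496-3. Leaving out each replicate number in all lines gave 18 to 28 members that differed among IDH1 WT lines. That count was 28 with all libraries and at most 29 under any alternative. Leaving out each replicate number also gave 2 to 9 members lower in PIC144-1 than in PIC144-3 (9 with all, 4 with TPM). In PIC496-4 relative to PIC496-3 it gave 1 to 3 lower (3 with all). The correlation of deviations of same-numbered libraries of different lines ran between -0.12 and 0.29 (median 0.01) and was over 0.1 for 14 of 63 pairs, against 10 of 126 pairs with different numbers. Of the 14 pairs, 9 were of replicate 2, with the highest value between PIC496-4 and PC308-1. Replicate 1 and 2 libraries correlated best with their own number in 5 of 7 lines each and replicate 3 libraries in 2 of 7. These values do not settle whether the numbers pair the libraries, and the main tests over libraries did not pair them. The replicate block changed no other call count of these by over 1.5 times. The cause of these changes was not tested. With 4 and 3 lines, no exact permutation p can fall below 0.0286, and the fewest fragments of a member in a line were 153.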
